A study of Mus musculus with 12 samples.

Results

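Mammary myoepithelial cells that carried a Ucp1 lineage label were compared with unlabelled cells sorted through the same gate. All of these samples came from C57BL/6 mice of the genotype Ucp1-iCre-ROSAmTmG at lactation day 10, and all cells were Lin−CD24+CD29hi. The groups were GFP-positive cells (n = 2 samples) and GFP-negative cells (n = 2 samples), so that 4 of the 12 samples of the series were used for the comparison. Both groups carried the iCre and the reporter; they differed in whether the reporter had recombined. Labelled and unlabelled myoepithelial cells of Myf5-Cre-ROSAmTmG mice at the same stage (n = 2 samples each) served only to test where the label effects differ. GFP-positive brown adipocytes from 8-week-old females of both lines (n = 2 samples each) entered the model only as part of the shared estimate of spread. The labels do not say whether the samples of a group came from separate animals, or how many cells were sorted. The spread between samples may therefore be technical. The p-values rest on a spread estimated over all 12 samples, and not on that of the labelled pair alone. Of 38924 genes in the deposited tables, 7399 had at least 10 counts in every one of the 4 samples, and 7398 of these were tested. Results below are mainly on those genes, and genes absent from the GFP-positive samples are given apart.

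Myoepithelial cells form the basal layer of mammary ducts and alveoli. They contain a smooth muscle type of contractile apparatus, and oxytocin released during suckling makes them contract and eject milk. Ucp1 encodes the uncoupling protein with which brown adipocytes turn stored fat into heat. In an mTmG mouse, cells make a membrane-bound red protein until Cre recombinase removes its coding sequence, after which the cell and its descendants make membrane-bound GFP. A GFP-positive cell need therefore not express Ucp1 when it is sorted. The comparison asks how cells of the Ucp1 lineage in the myoepithelial gate differ from unlabelled cells in that gate.

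The GFP-positive libraries stood apart before any gene was tested. They held 22313233 and 32956480 counts but only 10909 and 10560 genes with a count, whereas the GFP-negative libraries held 30072983 and 31005011 counts and 19794 and 19213 such genes. Over the 7398 genes, the GFP-positive libraries correlated with each other at r = 0.687 on the scale log2(CPM + 1), where CPM is counts-per-million, and the GFP-negative libraries at r = 0.986. These correlations are across genes, which are not independent replicates. The median absolute log2 difference between the GFP-positive libraries was 0.868, against 0.21 between the GFP-negative libraries. Across the label the same measure ran from 0.718 to 0.911 in the 4 pairs of libraries, so that the GFP-positive libraries differed from each other about as much as from the unlabelled cells. The total of either library gives 3 counts (the upper 95% limit of a count of 0) a level near 0.1 CPM, which covers counting error only.

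Genes missing from the GFP-positive libraries were common at moderate levels and rare at high ones. Of 1617 genes at 5 to 10 CPM in GFP-negative cells, 47.6% had 0 counts in the first GFP-positive library and 51.8% in the second. Between 50 and 100 CPM the shares were 2.17% and 2.49% of 1844 genes, and above 500 CPM no gene of 213 was missing. In the Myf5 line, 13.4% and 1.17% of the genes at 5 to 10 CPM were at 0. Many genes were lost from one library and abundant in the other. Among 10262 genes with at least 100 counts in either GFP-positive library, 2853 (27.8%) had at most 3 counts in the other. The corresponding figures were 4 of 11640 genes (0.0344%) for the Ucp1 GFP-negative pair and 578 of 11389 (5.08%) for the Myf5 GFP-positive pair. Of 8664 protein-coding genes at 10 CPM or more in GFP-negative cells, 1015 were at 0 in the first GFP-positive library and 1072 in the second. The 400 at 0 in both were 39.4% of the first set and 37.3% of the second. In bulk samples, fewer cells of a type and less RNA per cell cannot be told apart.

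**Figure D1:**
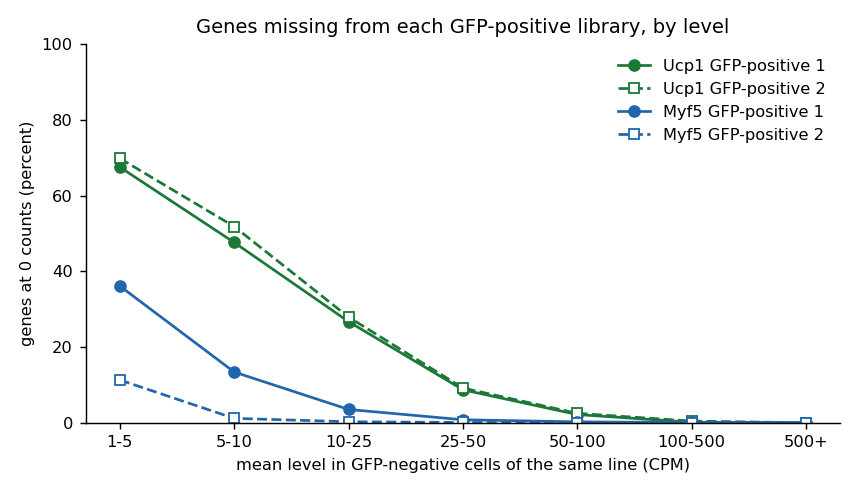
Share of genes with 0 counts in each GFP-positive myoepithelial library (vertical axis, percent) by mean level in GFP-negative cells of the same line (horizontal axis, CPM bins); lines join the bins of 1 library. Both Ucp1 libraries run far above both Myf5 libraries up to 50 CPM, with 47.6% and 51.8% of genes missing at 5 to 10 CPM.

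The edgeR quasi-likelihood test with Benjamini-Hochberg adjustment over all 16953 genes tested called 2423 genes (14.3%), and nearly all of them rested on low or missing counts in GFP-positive cells. Among the 9555 genes with fewer than 10 counts in at least 1 of the 4 libraries, 2222 were called (23.3%). Among the 7398 genes seen in all 4, 201 were called (2.72%), of which 44 were higher (0.595%) and 157 lower (2.12%) in GFP-positive cells. The median log2 difference was 0.042 over those 7398 genes and -0.686 over all genes tested. Both GFP-positive libraries lay above both GFP-negative libraries for 26.0% of the 7398 genes and below both for 28.7%, and these shares are the background for the gene groups that follow. With RLE in place of TMM scaling factors the medians were 0.222 and -0.512, and the 190 calls split into 83 higher and 107 lower. A minimum in every library removes genes that fell to a few counts, which are described with the absent genes.

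The calls depended on single libraries. Without the first or the second GFP-negative library, 28 and 22 of the 7398 genes were called, all lower, and no rise kept its call. Without the first or the second GFP-positive library, 629 and 897 were called. Of the 201 calls, 21 held without each of the 4 libraries in turn, and all 21 were falls. Each of these fits leaves 1 sample in an arm, which is assumed to vary like the other groups, so that a call that held is not a check by replicates. A fit of the 8 myoepithelial libraries, without the brown adipocytes, lost the calls of 22 of the 54 genes named here that were seen in all 4 libraries and called. Among the falls described below these were Mylk, Tpm1, Tpm2, Sparc, Mfge8, Cox7a2, G0s2, Mrps15, Phf10 and Inafm1, and the other 12 were rises (edgeR adjusted p from 0.0582 to 0.132).

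**Figure D2:**
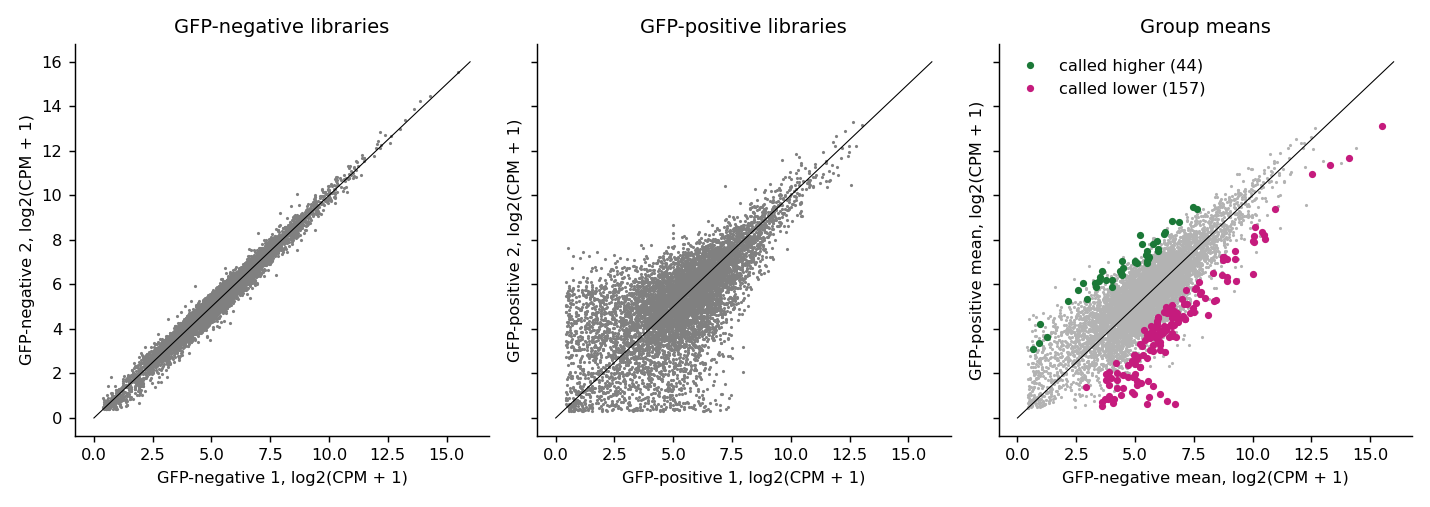
Levels of the 7398 genes seen in all 4 libraries on the scale log2(CPM + 1): the GFP-negative libraries against each other, the GFP-positive libraries against each other, and the group means with the 44 genes called higher and the 157 called lower in colour; the line marks equal levels. The GFP-negative points hug the line (r = 0.986) and the GFP-positive points scatter widely (r = 0.687).

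Contractile genes lay lower in labelled cells. Of 20 smooth muscle contractile genes, 17 were seen in all 4 libraries, 15 of these lay lower in both GFP-positive libraries than in both GFP-negative ones, and 4 fell (28.7% and 2.12% of all 7398 genes did so). Their median log2 difference was -1.68. Transgelin (Tagln, an actin-binding protein of smooth muscle, ENSMUSG00000032085, mm10 chromosome 9, 45929619 to 45936058) stood at 170 and 352 CPM in GFP-positive and 1283 and 1628 CPM in GFP-negative cells. It fell by 2.48 on the log2 scale (SE 0.577, edgeR adjusted p = 0.0205), although 67.9% of its exonic bases are shared with an overlapping gene, where counting can lose or gain reads. Mylk, the kinase that starts contraction by phosphorylating myosin light chain (ENSMUSG00000022836, chromosome 16, 34745210 to 35002420), stood at 99.2 and 185 CPM against 561 and 651 CPM. It fell by 2.09 (SE 0.593, edgeR adjusted p = 0.0451). The groups did not overlap for either gene, and the first GFP-positive library was the lower of the labelled pair for both.

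Tropomyosins, which lie along actin filaments and gate their contact with myosin, gave the other calls. Tpm1 stood at 115 and 374 CPM in GFP-positive and 916 and 1150 CPM in GFP-negative cells, a fall of 2.08 (SE 0.59, edgeR adjusted p = 0.0453). Tpm2 stood at 162 and 430 CPM against 1244 and 1605 CPM and fell by 2.27 (SE 0.657, edgeR adjusted p = 0.0484). Each of these 4 calls held in 1 of the 4 fits that leave out a library. With RLE factors Tagln stayed called (edgeR adjusted p = 0.025) and Mylk, Tpm1 and Tpm2 did not (edgeR adjusted p = 0.0551, 0.0554 and 0.0581).

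Acta2, the smooth muscle actin that marks myoepithelial cells, split the labelled libraries. It stood at 145 and 1384 CPM in GFP-positive against 4291 and 5610 CPM in GFP-negative cells (log2 -2.69, SE 0.845, edgeR adjusted p = 0.0625, not called). Myl9, the regulatory light chain of smooth muscle myosin, stood at 30.3 and 316 CPM against 999.7 and 1261 CPM, and Actg2, the enteric smooth muscle actin, at 24.8 and 88.5 CPM against 316 and 342 CPM. Synpo2, an actin-bundling protein, was 3.27 and 73.2 CPM against 112 and 119 CPM. In all 4 of these genes the first GFP-positive library was the lower one, and in none did the groups overlap. Members in which the labelled libraries lay close together were the myosin heavy chain Myh11, at 596 and 682 CPM against 2285 and 1810 CPM, and calponin Cnn1, at 262 and 318 CPM against 1093 and 1475 CPM. The actin crosslinker Actn1 (log2 0.04) and the tropomyosin Tpm4 (log2 -0.16, or 0.02 with RLE factors) overlapped between the groups. Of the 3 other members, the intermediate filament gene Des and the transcriptional coactivator Myocd were at 0 in both GFP-positive libraries, and Lmod1, an actin nucleator of smooth muscle, had 0 and 189 counts against 1144 and 1341.

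The signalling that drives contraction was less uniform. The oxytocin receptor Oxtr (ENSMUSG00000049112, chromosome 6, 112473683 to 112489943) had 4 counts in the first GFP-positive library, 6806 in the second, and 10678 and 11060 in the GFP-negative libraries. The first labelled library thus nearly lacked the receptor, and the second held it below the unlabelled libraries. Gnaq, the G protein subunit that couples the receptor to phospholipase C, stood at 8.12 and 11.7 CPM against 40.2 and 36.7 CPM (log2 -1.95, SE 0.612, edgeR adjusted p = 0.0622). The kinase Rock2, which sustains contraction, lay the other way and stood at 339 and 200 CPM against 185 and 129 CPM (log2 0.78, edgeR adjusted p = 0.439). Of 14 signalling members seen in all 4 libraries none was called, 8 lay lower and 1 higher without overlap, and the median was -0.51.

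The basal keratins and the smooth muscle actin that mark myoepithelial cells were present in all 4 libraries, while other basal genes were missing from 1 or both labelled libraries. None of the basal genes seen in all 4 libraries was called. Krt14, the keratin that marks the basal layer with Krt5 (ENSMUSG00000045545, chromosome 11, 100203162 to 100207548), stood at 56.1 and 162 CPM in GFP-positive and 588 and 626 CPM in GFP-negative cells (log2 -2.48, SE 1.09, edgeR adjusted p = 0.173). Its partner Krt5 stood at 71.1 and 107 CPM against 312 and 344 CPM (log2 -1.88, SE 0.77, edgeR adjusted p = 0.145). Keratins share sequence with their relatives (30% of sampled 31-base stretches for Krt14), so reads can be split between them. Krt17 was 140 and 29.6 CPM against 452 and 436 CPM and Krt15 18.1 and 68.9 CPM against 159 and 256 CPM. All 4 keratins were lower in both labelled libraries, by amounts that differed between those libraries.

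The integrins used to sort or anchor basal cells did not follow the keratins. Itgb1, the CD29 of the sort gate, stood at 697 and 866 CPM in GFP-positive and 970 and 835 CPM in GFP-negative cells, and the groups overlapped (log2 -0.21, edgeR adjusted p = 0.86). Itga6, the laminin receptor subunit of basal cells, was 826 and 389 CPM against 411 and 357 CPM (log2 0.66, edgeR adjusted p = 0.513). Cd24a, the other antigen of the gate, was 0.625 and 16.9 CPM against 122 and 96.4 CPM (log2 -3.64, SE 1.48, edgeR adjusted p = 0.128). The transcript of this sort marker thus lay low in both labelled libraries and lowest in the first.

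Several regulators of basal cells were present in one labelled library and missing from the other. Snai2, a transcription factor that sustains the basal state, had 0 and 3100 counts in GFP-positive against 1524 and 2117 in GFP-negative cells. P-cadherin (Cdh3) had 1358 and 1 counts against 1508 and 1367. Trp63, the transcription factor that specifies basal epithelium, had 370 and 0 counts against 974 and 559. The library that held the gene was the second for Snai2 and the first for Cdh3 and Trp63. The epidermal growth factor receptor Egfr had 0 counts in both labelled libraries against 1127 and 663, a fall of at least 617-fold against 3 counts in their pooled total (edgeR adjusted p = 0.00131). This and the other fold bounds given here cover counting error only, not loss of a gene from a library. Among 6144 genes with at least 1000 counts in either GFP-positive library, 715 (11.6%) had at most 3 counts in the other. Of 20 basal genes, 11 were seen in all 4 libraries, with 5 lower and 1 higher without overlap and a median of -0.81.

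Among 19 basement membrane and adhesion genes seen in all 4 libraries, only Sparc was called. Sparc, a collagen-binding matrix protein, stood at 1547 and 2435 CPM in GFP-positive and 4592 and 7301 CPM in GFP-negative cells and fell by 1.58 (SE 0.448, edgeR adjusted p = 0.0453; 0.0732 with RLE factors). The median of the list was -0.26. The laminin chain Lama1 had 0 and 1 counts against 1204 and 984, and Lama2 had 0 and 0 against 1454 and 959. Both fell (edgeR adjusted p = 0.0397 and adjusted p = 0.00139), Lama2 by at least 833-fold.

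Milk gene transcripts, which come from secretory luminal cells, were lower in labelled cells. The milk list took 3.29% and 3.54% of the counts in GFP-positive and 12.9% and 13.7% in GFP-negative libraries. Of 19 members seen in all 4 libraries, 16 lay lower and 1 higher without overlap, and 6 fell, with a median of -1.90. Beta-casein (Csn2, ENSMUSG00000063157, chromosome 5, 87692624 to 87699630) stood at 8254 and 9225 CPM against 45600 and 47370 CPM, a fall of 2.41 (SE 0.632, edgeR adjusted p = 0.0446). Glycam1, a milk mucin (ENSMUSG00000022491, chromosome 15, 103562759 to 103565081), stood at 91.1 and 85.5 CPM against 830 and 1258 CPM and fell by 3.56 (SE 0.446, edgeR adjusted p = 0.00244). Its labelled libraries agreed within a few CPM, and its call held without each of the 4 libraries. The whey acidic protein gene Wap, the casein Csn1s1, the iron-binding Lcn2 and the milk fat globule protein Mfge8 fell by 2.39, 1.94, 2.17 and 1.61 (edgeR adjusted p = 0.0316, 0.0454, 0.0228 and 0.0405). With RLE factors the calls of Csn2, Csn1s1 and Mfge8 were lost (edgeR adjusted p = 0.0676, 0.0747 and 0.0676). Xdh, an enzyme that milk fat globules need for secretion, stood at 763 and 1463 CPM against 699 and 641 CPM and was not called (log2 0.73, edgeR adjusted p = 0.295). Pthlh, a parathyroid hormone-like hormone of mammary epithelium, had 0 and 3 counts against 806 and 653 and fell (edgeR adjusted p = 0.0083).

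Luminal identity genes also lay lower, without a call among the 9 seen in all 4 libraries. All 23 listed genes summed to 423 and 663 CPM in GFP-positive and 1645 and 1794 CPM in GFP-negative cells. Krt8, a luminal keratin, stood at 22.6 and 153 CPM in GFP-positive and 330 and 342 CPM in GFP-negative cells (edgeR adjusted p = 0.274). Epcam, an epithelial adhesion protein, was 21.1 and 26.2 CPM against 66.6 and 60.6 CPM (edgeR adjusted p = 0.678). The list median was -1.43, and 7 of 9 lay lower without overlap. Of the 13 luminal genes tested with fewer counts, Krt7 fell from 1453 and 1431 counts to 0 and 1 (edgeR adjusted p = 0.0267). The estrogen and progesterone receptors Esr1 and Pgr fell to 0 (at least 102-fold and 57.4-fold, edgeR adjusted p = 0.00397 and 0.0432). These 3 were the only calls of the 13, beside 23.3% of all genes tested with fewer than 10 counts in at least 1 library. Esr1 and Pgr stood at 4.46 and 2.52 CPM in GFP-negative cells. Of 2372 protein-coding genes at 1 to 5 CPM there, 52.5% were at 0 in both labelled libraries. The receptor tyrosine kinase Kit, found in luminal progenitors, had 1680 and 0 counts against 472 and 180. The part of luminal RNA in the lower milk levels was not tested.

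**Figure D3:**
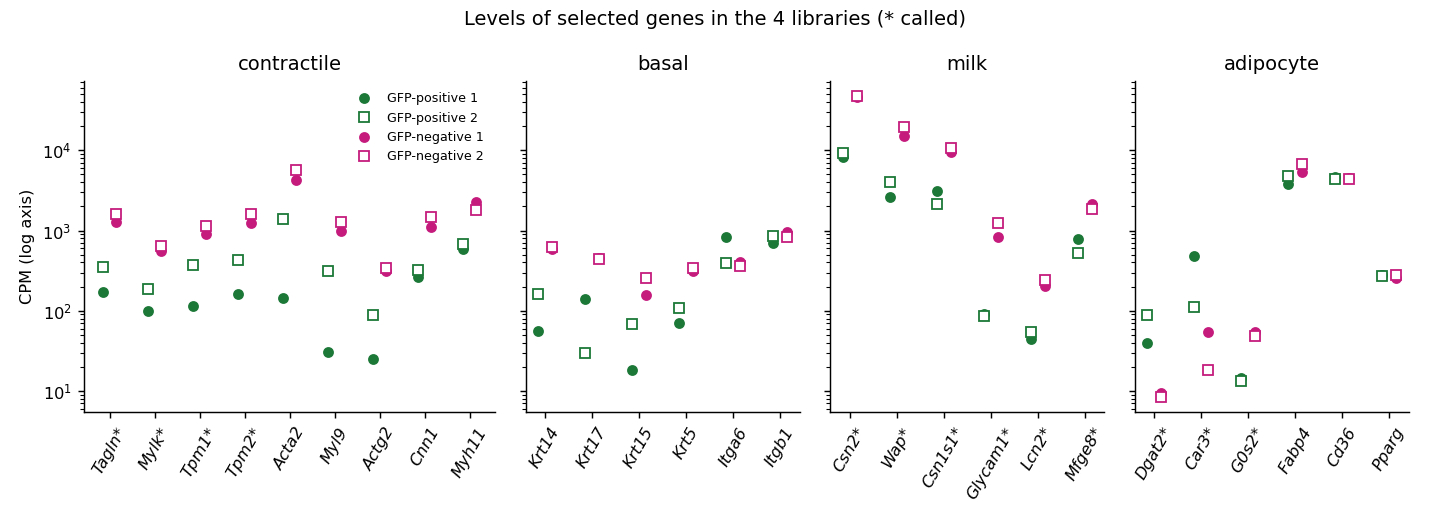
CPM (log axis) of contractile, basal, milk and adipocyte genes in each of the 4 libraries; green is GFP-positive, pink GFP-negative, filled circles are the first and open squares the second library, and an asterisk marks a call by edgeR. Contractile genes and milk genes lie lower in both labelled libraries, with the first labelled library far below the second for Acta2 (145 against 1384 CPM), Cd36 and Pparg overlap between the groups, and Fabp4 lies lower in both labelled libraries (3786 and 4814 against 5378 and 6679 CPM).

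Adipocyte genes were measurable in both kinds of cell, and they lay on both sides of the unlabelled level. Of 19 seen in all 4 libraries, 8 lay higher and 5 lower without overlap, 2 rose and 1 fell, with a median of 0.41 beside 0.042 for all 7398 genes. Dgat2, which makes triglyceride (ENSMUSG00000030747, chromosome 7, 99153658 to 99182719), stood at 40.0 and 89.9 CPM in GFP-positive and 9.47 and 8.38 CPM in GFP-negative cells and rose by 2.86 (SE 0.728, edgeR adjusted p = 0.0302). Car3, the carbonic anhydrase of fat and muscle, stood at 487 and 112 CPM against 54.1 and 18.2 CPM and rose by 3.05 (SE 0.841, edgeR adjusted p = 0.0412). G0s2, an inhibitor of the lipase Pnpla2, stood at 14.7 and 13.5 CPM against 55.0 and 49.2 CPM and fell by 1.88 (SE 0.494, edgeR adjusted p = 0.0342). Dgat2 and Car3 lost their calls without either GFP-negative library, without 1 GFP-positive library (the second for Dgat2, the first for Car3) and when the brown adipocytes were left out of the fit (edgeR adjusted p = 0.0685 and 0.0723). G0s2 lost its call without any 1 of the 4 libraries and with RLE factors (edgeR adjusted p = 0.0555).

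Adipocyte markers without a call lay higher, lower or level with the label. Fabp4, a fatty acid carrier, stood at 3786 and 4814 CPM in GFP-positive and 5378 and 6679 CPM in GFP-negative cells (log2 -0.49, edgeR adjusted p = 0.662), without overlap. The fatty acid transporter Cd36 was 4603 and 4431 CPM against 4536 and 4440 CPM, and the adipogenic factor Pparg 281 and 274 CPM against 253 and 281 CPM. Cd36 and Pparg overlapped between the groups, and both are also made by endothelial cells and other mammary cells. Among genes more restricted to fat, several lay higher in both labelled libraries. Cidec stood at 8.31 and 15.8 CPM against 3.25 and 1.90 CPM, and Adig at 5.55 and 2.525 CPM against 1.95 and 1.65 CPM (edgeR adjusted p = 0.265 and 0.571). Adipoq, an adipocyte hormone, stood at 12.5 and 17.0 CPM against 3.13 and 1.04 CPM (log2 2.82, SE 0.979, edgeR adjusted p = 0.0913). The beta-3 adrenergic receptor Adrb3 was 13.7 and 19.7 CPM against 0.872 and 1.01 CPM (log2 4.14, SE 1.77, edgeR adjusted p = 0.146), and the hormone-sensitive lipase Lipe 124 and 183 CPM against 63.4 and 72.5 CPM (log2 1.18, SE 0.437, edgeR adjusted p = 0.102). Other members of the adipocyte list lay lower in both. Leptin (Lep) had 0 and 352 counts against 4976 and 4674. Plin4, a lipid droplet protein, stood at 0.11 and 0.607 CPM against 6.52 and 6.12 CPM (log2 -4.10, edgeR adjusted p = 0.0595). Slc2a4, the insulin-regulated glucose carrier, stood at 2.24 and 23.3 CPM against 54.5 and 64.9 CPM. In GFP-negative cells the means of Lep and Slc2a4 were 146 and 59.7 CPM, far above the 2.08 CPM of Adipoq. The lipid droplet protein Plin1 and the hormone Retn were at 0 in the first labelled library and had 201 and 59 counts in the second, against 29 and 20 and 44 and 23.

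Of 21 listed genes of the brown fat heat program 5 fell and none rose, and all 5 were absent from both labelled libraries. The 7 genes seen in all 4 libraries lay on both sides and none was called. Falls were also the rule among all genes with few counts. Of the 9555 tested with fewer than 10 counts in at least 1 library, 2219 fell and 3 rose. Of the 3091 tested at 0 in both labelled libraries and with at least 10 counts in both unlabelled ones, 1725 fell. The median of the thermogenic list was -1.33 over the members tested and 0.28 over the 7 seen. Ucp1 itself (ENSMUSG00000031710, chromosome 8, 83290352 to 83298452) had 0 counts in both GFP-positive and 18 counts in each GFP-negative library. That was a fall of at least 12.4-fold against 3 counts in the pooled labelled total (edgeR adjusted p = 0.0323), a bound that covers counting error only. Zeros were common at such levels. Of 2372 protein-coding genes at 1 to 5 CPM in GFP-negative cells, 52.5% were at 0 in both labelled libraries, and Ucp1 lay below that range. Cidea, a lipid droplet protein, stood at 137 and 184 CPM against 437 and 362 CPM (log2 -1.32, SE 0.562, edgeR adjusted p = 0.145), and Prdm16, a transcriptional regulator of brown fat, at 14.3 and 17.5 CPM against 27.1 and 38.1 CPM. Cox8b, a respiratory subunit of heart and brown fat, lay the other way at 4.60 and 3.06 CPM against 0.571 and 0.367 CPM (log2 3.01, SE 0.911, edgeR adjusted p = 0.0553). Ebf2, a factor of brown preadipocytes, was 85.8 and 24.1 CPM against 24.4 and 16 CPM. Others were found in the second labelled library and not the first: the coactivator Ppargc1a had 0 and 675 counts against 10 and 24, Kcnk3, a potassium channel, 0 and 1000 against 274 and 248, and the respiratory subunit Cox7a1 0 and 100 against 12 and 14. The other falls were those of the proton channel Otop1 (355 and 176 counts in GFP-negative cells, at least 183-fold), the deiodinase Dio2 (33 and 30 counts), the fatty acid transport protein Slc27a2 (19 and 15 counts) and the transcription factor Lhx8 (17 and 11 counts), with edgeR adjusted p = 0.00364, 0.0299, 0.037 and 0.0466. The 7 seen in all 4 had medians on the log2(CPM + 1) scale of 0.866 in the first labelled library and -0.65 in the second, and their median log2 difference was -0.74 at the lowest and 0.857 at the highest with 1 library left out.

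Respiratory chain genes of the nucleus lay lower with the label. Of 32 nuclear genes of the respiratory chain, all seen in every library, 25 lay lower without overlap and the median was -0.87, with values of -0.85 and -0.81 on the log2(CPM + 1) scale in the labelled libraries. Cox7a2, a subunit of cytochrome oxidase, was the only one called, at 19.7 and 18.7 CPM against 53.0 and 67.5 CPM (log2 -1.65, SE 0.448, edgeR adjusted p = 0.0392; 0.0695 with RLE factors). Of 12 genes of the mitochondrial chromosome, 4 lay higher and none lower without overlap (median 0.63). That median was -0.02 without the first GFP-positive library, in which mt-Co1, another oxidase subunit, stood at 6123 CPM against 1397 CPM in the second and 1689 and 1770 CPM in GFP-negative cells. Fatty acid oxidation genes centred near 0 (median 0.04, 5 of 17 higher and 3 lower without overlap), and fatty acid and triglyceride synthesis genes lay lower for 11 of 18 (median -0.53). No member of either list was called among those seen in all 4.

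**Figure D4:**
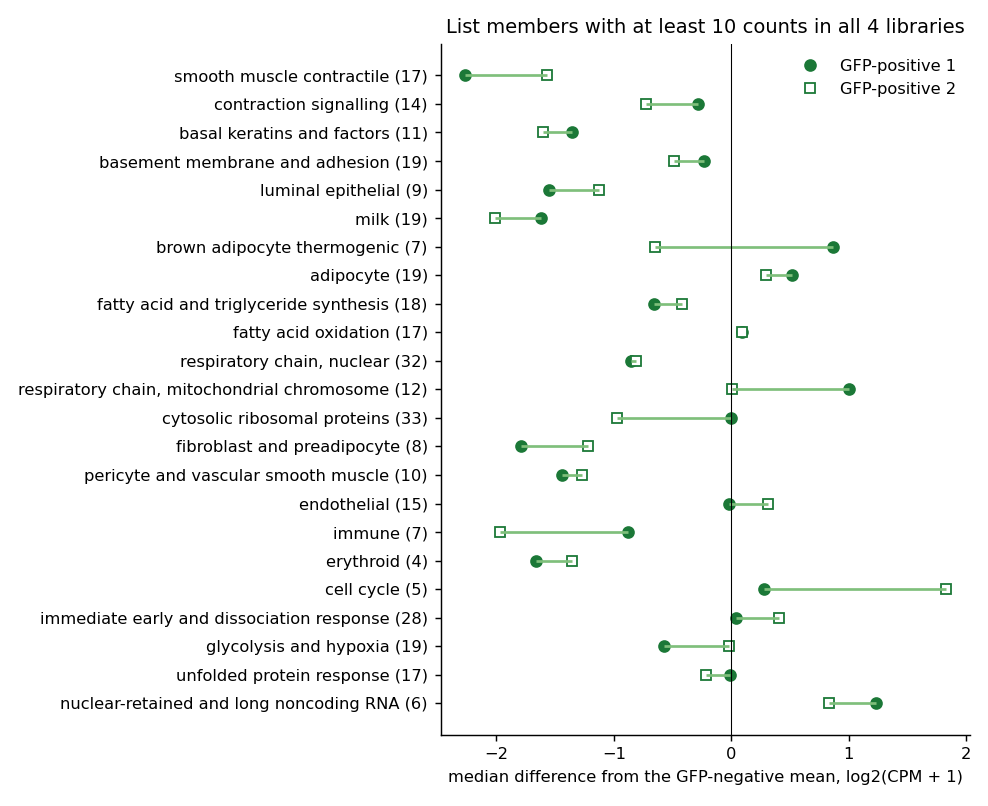
Median difference of each GFP-positive library from the GFP-negative mean, on the scale log2(CPM + 1), over list members with at least 10 counts in all 4 libraries (number of members in brackets; the line joins the libraries). Contractile, milk, luminal, basal, fibroblast and pericyte members lie below 0 in both labelled libraries, the adipocyte and long noncoding lists above 0 in both, and the thermogenic list on either side.

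The largest falls among genes seen in all 4 libraries included genes that were near 0 CPM in both labelled libraries. Fibrillin 1 (Fbn1, the backbone of matrix microfibrils, ENSMUSG00000027204, chromosome 2, 125300594 to 125507993) stood at 1.14 and 0.243 CPM in GFP-positive and 92.5 and 68.3 CPM in GFP-negative cells and fell by 6.87 (SE 1.02, edgeR adjusted p = 0.00251). Col15a1, a collagen next to basement membranes (ENSMUSG00000028339, chromosome 4, 47208161 to 47313167), stood at 0.588 and 1.21 CPM against 40.8 and 52.8 CPM and fell by 5.68 (SE 0.852, edgeR adjusted p = 0.00258). Sdc2, a heparan sulfate proteoglycan of the cell surface, stood at 0.478 and 2.94 CPM against 62.2 and 45.8 CPM and fell by 4.97 (SE 0.922, edgeR adjusted p = 0.00691). All 3 genes kept their calls without each library in turn.

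Prkacb, a catalytic subunit of protein kinase A, stood at 0.404 and 1.77 CPM against 69.7 and 61.4 CPM and fell by 5.89 (SE 0.84, edgeR adjusted p = 0.00211). Gigyf2, a repressor of translation, and Impact, which restrains activation of a kinase that inhibits translation, fell by 4.72 and 4.27 (edgeR adjusted p = 0.00238 and 0.0118). Tril, a Toll-like receptor accessory protein, gave the largest fitted fall, 7.49, from 100.4 and 103.8 CPM to 0.368 and 0.753 CPM (edgeR adjusted p = 0.0219), but lost its call in 2 of the 4 fits without a library. Arfip1, at 0.625 and 0.461 CPM against 46.8 and 43.4 CPM, shares 75.1% of its exonic bases with an overlapping gene, so its fall of 6.37 is uncertain. Predicted genes, such as those with Gm and Rik symbols, were left out of this ranking of falls. The other falls among the 15 largest were those of Phf10, Syt11, Nrip2, Ppdpf, Inafm1, Irgm2 and Ipo11, with log2 values from -4.71 to -4.22.

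The 21 falls that held without each library in turn ran from -6.87 to -2.21. Beside those named, they were Hspb6, Rhog, Ak3, Fkbp9, Smim14, Mrpl4, Mrps15, Gmps and Tmem176b, chosen after their values were seen. Hspb6, a small heat shock protein of smooth muscle, stood at 10.7 and 12.4 CPM in GFP-positive and 90.6 and 121 CPM in GFP-negative cells (log2 -3.19, SE 0.531, edgeR adjusted p = 0.004). Rhog, a small GTPase, was 7.50 and 7.36 CPM against 53.6 and 76.2 CPM (log2 -3.13, SE 0.517, edgeR adjusted p = 0.00392). The mitochondrial ribosomal proteins Mrpl4 and Mrps15 fell by 2.43 and 3.51 (edgeR adjusted p = 0.0046 and 0.00798). In Hspb6, Rhog and Mrpl4 the labelled libraries lay within a few CPM of each other.

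The largest rises were of genes at low level in unlabelled cells. Haptoglobin (Hp, a hemoglobin-binding plasma protein also made by fat, ENSMUSG00000031722, chromosome 8, 109575128 to 109579172) stood at 15.1 and 19.7 CPM in GFP-positive and 1.11 and 0.795 CPM in GFP-negative cells and rose by 4.18 (SE 0.828, edgeR adjusted p = 0.00936). Arid3b, an AT-rich DNA-binding protein, stood at 91.3 and 39.2 CPM against 5.47 and 6.51 CPM and rose by 3.44 (SE 0.86, edgeR adjusted p = 0.0281). Atm, the kinase that signals DNA breaks, stood at 24.5 and 51 CPM against 4.06 and 2.87 CPM and rose by 3.44 (SE 0.961, edgeR adjusted p = 0.043). The groups did not overlap for any of the 3, and both labelled libraries were high. All 3 calls were lost without the brown adipocyte libraries in the fit (edgeR adjusted p = 0.115 for Hp, 0.0582 for Arid3b and 0.0682 for Atm).

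Jmjd1c, Sned1 and Pnpla7 rose to similar levels in both labelled libraries. Jmjd1c, a jumonji-domain nuclear protein (ENSMUSG00000037876, chromosome 10, 67096125 to 67256326), stood at 480 and 439 CPM against 115 and 71.2 CPM and rose by 2.30 (SE 0.605, edgeR adjusted p = 0.0345). Sned1, an extracellular matrix protein, was 112 and 79.2 CPM against 13.7 and 8.47 CPM and Pnpla7, a lysophospholipase, 59.3 and 57.0 CPM against 8.63 and 9.88 CPM (log2 3.11 and 2.65, edgeR adjusted p = 0.0192 and 0.0386). Predicted genes were left out of the ranking of rises too. The other rises among the 15 largest were Socs7, Lipt1, Simc1, Iqce, Elmod3, Coq4 and Cdan1, with log2 values from 2.50 to 3.41. Cdan1 shares 49.2% of its exonic bases with another gene. Socs7, a suppressor of cytokine signalling, was 91.7 CPM in the first labelled library and 14.7 CPM in the second, against 4.75 and 5.23 CPM.

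The direction of the difference went with gene length in both labelled libraries. The genes called higher had a median exonic length of 7769 bases, those called lower 3558 bases, and all genes seen in all 4 libraries 4595 bases. Among genes under 1500 bases the median log2 difference was -0.39 and 44.8% lay lower without overlap. Among genes of at least 8000 bases the median was 0.45 and 38.5% lay higher without overlap. The medians of the labelled libraries were -0.39 and -0.50 for the shortest genes and 0.48 and 0.24 for the longest. For the Myf5 label the median was -0.13 for the shortest and -0.16 for the longest genes. The part of length in the calls and in the list medians above, those of the respiratory chain genes included, was not tested.

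**Figure D5:**
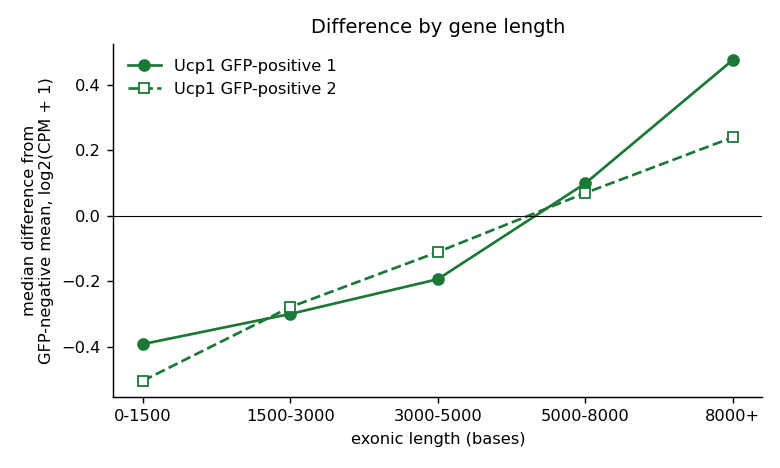
Median difference of each Ucp1 GFP-positive library from the GFP-negative mean, on the scale log2(CPM + 1) (vertical axis), by exonic length in bases (horizontal axis), over genes with at least 10 counts in all 4 libraries. Both labelled libraries climb from below 0 for the shortest genes (-0.39 and -0.50) to above 0 for the longest (0.48 and 0.24).

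Most listed nuclear-retained and long noncoding RNAs lay higher with the label, without a call, and early response genes differed little. Of 6 seen in all 4 libraries, 5 lay higher and 1 lower without overlap (median 1.28) and none was called. H19, also on that list, was at 0 in both labelled libraries. Malat1, a nuclear-retained RNA, stood at 3178 and 1614 CPM against 990 and 800 CPM (log2 1.42, SE 0.649, edgeR adjusted p = 0.172). Neat1, the scaffold of nuclear paraspeckles, was 229 and 812 CPM against 212 and 86.1 CPM. All 28 genes of the early and dissociation response were seen in every library, 11 lay higher and 3 lower without overlap, and the median was 0.34. Egr1, a transcription factor induced within minutes of stimulation, stood at 5008 and 7699 CPM against 6096 and 5235 CPM, with overlap.

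Markers of fibroblasts and leukocytes were mostly lower or missing in labelled cells. A Lin-negative gate is meant to remove leukocytes, but the labels do not name its antigens. Decorin (Dcn, a fibroblast proteoglycan, chosen after its values were seen as the only one called of 8 fibroblast genes seen in all 4) stood at 80.1 and 58.2 CPM against 548 and 415 CPM and fell by 2.80 (SE 0.768, edgeR adjusted p = 0.0408; 0.0557 with RLE factors). Lum, another fibroblast proteoglycan, had 4 and 3 counts against 3965 and 2730, and the matrix gene Dpt 0 and 1 against 714 and 631. Both fell (edgeR adjusted p = 0.00208 and 0.00117). The summed level of all 18 fibroblast genes was 1420 and 723 CPM in GFP-positive and 4856 and 4064 CPM in GFP-negative cells. The leukocyte antigen Ptprc was at 0 in both labelled libraries against 433 and 227 counts, and the antigen-presenting H2-Eb1 fell from 205 and 209 to 63.9 and 70.1 CPM (edgeR adjusted p = 0.0282). Summed immune markers (21 genes) were 1024 and 782 CPM against 2343 and 2264 CPM.

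Other lists ran differently. Endothelial genes summed to 9225 and 12740 CPM in GFP-positive and 9733 and 10750 CPM in GFP-negative cells, and of 15 seen in all 4, 4 lay higher, 3 lower and none was called (median 0.17). The endothelial genes Ackr1 and Gja5 were nonetheless at 0 in both labelled libraries. Pericyte genes lay lower for 8 of 10 (median -1.33; summed 1159 and 939 CPM against 2029 and 2100 CPM), and the growth factor receptor Pdgfrb had 4874 and 1 counts against 9480 and 7686. Of 11 genes on the Schwann cell list, 6 with few counts fell, among them Erbb3 and S100b to 0 (edgeR adjusted p = 0.00601 and 0.00216). Of all genes tested with fewer than 10 counts in at least 1 library, 23.3% were called. The 2 list members seen in all 4 libraries lay the other way, with a median of 0.296, and neither was called. Of them, 1 lay higher and 0 lower without overlap. No skeletal muscle gene was seen in all 4 libraries. Whether these cell types account for any difference between the groups was not tested.

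Genes absent from the labelled cells were counted separately. A total of 3151 genes had 0 counts in both GFP-positive libraries and at least 10 in both GFP-negative libraries, and no gene had the opposite pattern. Their median level in GFP-negative cells was 2.11 CPM, and 402 of them stood at 10 CPM or more there. Of the 3091 tested, 1725 fell. Predicted genes left aside, the 10 with the largest fold bounds were Des, Has1, C3, Ackr1, Gja5, Tmem63a, Tlr2, F3, Tmem86a and Tmem115. The bound of Des was at least 2002-fold against 3 counts in the pooled total of the labelled libraries, which covers counting error only. A further 3627 genes tested were at 0 in exactly 1 labelled library. Of these, 2623 had at least 10 counts in the other 3, and for 1590 of the 2623 the labelled library that held the gene exceeded both unlabelled ones in CPM, while for 870 it lay below both. The 36 genes with a lowest count of exactly 10 had a median log2 difference of -0.45, and the 33 with a lowest count of exactly 9 one of 0.03.

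The Ucp1 and Myf5 label effects were set against each other in the same model, with no shared library. Among the 7398 genes, edgeR called a difference for 146 (1.97%), of which 42 were higher and 104 lower for the Ucp1 label. With a block for each replicate number, chosen after seeing the data, the fit of the 8 myoepithelial libraries called 0 differences, against 100 without the block. The 3 differences given next are among the 10 largest, with predicted genes left aside. Fbn1 had 31 and 10 counts in Ucp1 GFP-positive against 3076 and 2234 in GFP-negative cells, and 6883 and 9317 in Myf5 GFP-positive against 616 and 1640 in GFP-negative cells (difference of log2 effects -9.89, SE 1.32, edgeR adjusted p = 0.00256). Sdc2 went the same way, with 13 and 121 against 2069 and 1498 counts in the Ucp1 line and 8467 and 7647 against 1227 and 760 in the Myf5 line (difference -8.19, SE 1.25, edgeR adjusted p = 0.00369). Nrip2, a nuclear receptor-interacting protein, gave -8.14 (SE 1.2, edgeR adjusted p = 0.00342). For these 3 genes labelled cells were called lower than unlabelled ones in the Ucp1 line. They lay higher in the Myf5 line, where the label effect was not called (edgeR adjusted p = 0.318 for Fbn1, 0.294 for Sdc2 and 0.263 for Nrip2).

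Of the 42 genes whose label effect was higher in the Ucp1 line, 11 had 0 counts in at least 1 Myf5 GFP-positive library. Ido1, a tryptophan-degrading enzyme, had 187 and 585 counts in Ucp1 GFP-positive, 63 and 26 in Ucp1 GFP-negative and 0 in both Myf5 GFP-positive libraries, against 47 and 25 in the Myf5 GFP-negative ones. Deup1, Pak6, Aloxe3, Zglp1 and Zc3h12d were likewise at 0 in both Myf5 GFP-positive libraries, and Rec8 had 0 and 1 counts there. In Deup1 the labelled cells were the lower ones in the Ucp1 line too (34 and 122 against 136 and 216 counts), so that its difference rests on the 0 counts in the Myf5 line. The exons of Zglp1 overlap another gene over 92.2% of their length, so its reads are uncertain. Contractile genes gave no called difference between the labels in the 17 members seen in all 4 Ucp1 libraries, with medians of -1.68 for Ucp1 and -1.09 for Myf5. The milk, luminal and basal members seen in all 4 gave no called difference either. Their medians were -1.90, -1.43 and -0.81 for Ucp1 and -1.54, -1.81 and -2.17 for Myf5. Of the fibroblast list 4 of 8 members differed (medians -1.68 and 4.36), of the pericyte list 4 of 10 (medians -1.33 and 2.39), and of the adipocyte list 3 of 19. Dgat2 and Lipe were higher with the Ucp1 label than with the Myf5 label (differences 4.05 and 2.96, edgeR adjusted p = 0.0302 and 0.0142) and G0s2 was lower (difference -3.42, edgeR adjusted p = 0.0121).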

How the data were processed

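Sorted cells were profiled by bulk RNA sequencing. Per the labels' protocols, an RNeasy Micro kit served for RNA isolation and cDNA was made with the SMART-Seq v4 Ultra Low Input kit. The authors deposited raw read counts per Ensembl gene for each sample; the submitters' processing notes name TopHat, HTSeq, DESeq2 and mm10. Their versions, the annotation, the strand setting and the treatment of multiply matching reads: not given in the sources used here. No per-sample column was left unused (0).

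The 12 tables were joined on gene identifier, and names, types, lengths and overlaps came from GENCODE M21 (mm10), which named 37607 of 38924 genes. Samples followed the labels. All 12 libraries entered 1 edgeR 4.0.16 quasi-likelihood fit (R 4.3.3, limma 3.58.1) with a mean per group, TMM factors, filterByExpr at a minimum count of 10 and Benjamini-Hochberg adjustment at 0.05 over 16953 genes; a gene past that threshold is called changed. Standard errors are the log2 estimate divided by the root of the F statistic. CPM values are scaled by TMM factors. A zero group is bounded at 3 counts in its pooled total, which covers counting error only. Shared sequence is the percent of 31-base stretches, taken every 10 bases, found in another gene's transcripts. The fit was tested on simulated counts drawn with the same spread for every gene and library. Loss of genes from single libraries was not simulated, so that test cannot show how the fit handles such loss. DESeq2 1.42.0 and limma-voom were alternatives. Tables and figures used matplotlib 3.10.9, numpy 2.4.6, pandas 2.3.3 and Python 3.11.15.

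The members, the 25 gene lists (503 symbols, 499 found) and the named-gene rule were chosen with earlier results of these data known. The rule takes Cd24a, Itgb1 and Ucp1. Among called genes seen in all 4 libraries it takes the 15 largest falls and the 15 largest rises, without overlap and at 10 CPM or more where higher. It adds genes of highest mean CPM, up to 4 called members per list (or the 2 of highest mean CPM), any member of the contractile, signalling, basal, luminal, milk, thermogenic and adipocyte lists, the 10 largest bounds among absent genes, and the 10 largest differences between the labels. Predicted or unnamed genes, such as those with Gm and Rik symbols, were left out of the falls, rises, absent genes and label differences. Genes outside the rule are marked.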

Additional observations from a re-analysis of the deposited data

Results flagged for a closer look

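The genes below were picked out because the effect of the Ucp1 label differed from that of the Myf5 label by the edgeR test of the difference, adjusted over all genes. Each value is the log2 of the Ucp1 label fold over the Myf5 label fold, and no explanation was tested. Among the matrix and surface genes it was -9.89 for Fbn1, -5.51 for Col15a1, -7.13 for Dcn and -8.19 for Sdc2. Among signalling and regulatory genes it was -6.17 for Prkacb, -4.29 for Gigyf2, -5.13 for Impact, -8.14 for Nrip2, -2.62 for Rhog, -6.33 for Syt11, -3.76 for Ppdpf and -7.05 for Arfip1, whose exons mostly overlap another gene. Fkbp9, Mrps15, Smim14 and Tmem176b gave -3.73, -3.51, -3.24 and -1.93. In adipocyte genes it was 4.05 for Dgat2, 2.96 for Lipe and -3.42 for G0s2. The other rises gave 4.81 for Atm, 3.38 for Cdan1 and 4.08 for Elmod3.

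For genes with 0 counts in a Myf5 library the fitted ratio is no bound, so the adjusted p of the difference (edgeR) is given. It was 0.00568 for Hp, 0.0223 for Aloxe3, 0.0246 for Deup1, 0.0341 for Ido1, 0.0476 for Pak6, 0.0221 for Rec8, 0.0353 for Zc3h12d and 0.0374 for Zglp1. Hp had 0 and 3 counts in the Myf5 GFP-positive libraries and 16 and 16 in the Myf5 GFP-negative ones.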

How the results depend on the processing

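Counts of calls depended strongly on the method and on single libraries, and the cause was not tested. Over all genes tested (2423 called), DESeq2 called 4152, limma-voom 5146 and a fit of the 8 myoepithelial libraries 1488. Among genes seen in all 4 libraries (201 called, 44 higher, 157 lower), DESeq2 called 865 (535 and 330), limma-voom 752 (339 and 413), the fit without a count filter 109 (22 and 87) and the 8 myoepithelial libraries 89 (27 and 62). The 4 libraries alone gave 149 higher and 99 lower, RLE factors 83 higher, and removal of milk and mitochondrial genes 71 higher. Those genes fitted alone gave 7 calls, 0 higher and 7 lower. A mean of 10 CPM in place of the minimum gave 434 calls, 394 lower. With 1 library left out, calls over all genes ran from 1293 to 4165 and those in genes seen in all 4 from 22 to 897 (0 to 277 higher, 22 to 620 lower). The difference between labels (146) was called for 565 by DESeq2, 332 by limma-voom and 35 to 703 with 1 library left out; over all genes (1861) the counts were 3059 by DESeq2 and 949 to 3740 with 1 library left out. A restriction to genes with little shared sequence, chosen after seeing the data, gave 141 calls (33 higher), and absent genes numbered 3151 to 3814 over the definitions tried.

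Same-numbered samples of the Ucp1 line did not vary together (correlation of deviations 0.0686 over 16953 genes); in the Myf5 line they did (0.472). With 2 pairs per line and no label that ties them, the numbers were not taken to pair the samples. The replicate block was fitted on the 8 myoepithelial libraries, where edgeR called 0 genes over all genes and 0 among the 7399 seen in all 4 (0 higher, 0 lower; smallest adjusted p = 0.121; 889 with an unadjusted p under 0.05), against 1488 and 89 without the block (799 with an unadjusted p under 0.05). For the difference between labels, tried after seeing the data, the block gave 0 calls over all genes and 0 among those seen in all 4 (smallest adjusted p = 0.0794; 820 with an unadjusted p under 0.05), and those libraries without it 1187 and 100. Of 54 named genes with a call, calls were lost for 10 with RLE factors, 13 without the filter, 22 in the 4 libraries alone, 22 in the 8 myoepithelial libraries, 5 by limma-voom, 0 by DESeq2 and 47 in the genes fitted alone, and no sign changed. Without either GFP-negative library 33 were lost, and without the first or second GFP-positive library 19 and 9. Of the uncalled genes, Tpm4 turned to 0.0217 with RLE factors and with DESeq2. With 1 library left out, log2 values ran from -0.0482 to 0.101 for Actn1, -0.0301 to 0.0228 for Cd36, -0.192 to 0.431 for Egr1, -0.0899 to 4.04 for Pak6, -0.0316 to 0.12 for Pparg, -0.582 to 0.154 for Tpm4 and -0.319 to 1.81 for mt-Co1. The medians of the thermogenic, fatty acid oxidation, mitochondrial, endothelial and unfolded protein lists changed sign under at least 1 setting.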
